A study of Caenorhabditis elegans with 2 samples.

Results

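The genes described here are 10 growth signalling genes of Caenorhabditis elegans, and the data are the places where the transcription factor XBP-1 was found on chromatin around them. They are daf-2, age-1, daf-18, akt-1 and daf-16 of the insulin pathway, let-363, daf-15, rsks-1 and raga-1 of the TOR pathway, and aak-2 of the AMPK pathway. They were picked by name for their role in growth control after starvation, by a rule that uses no measured value, though with earlier results of these data known, and all 10 were matched among the 19973 nuclear protein-coding genes of the annotation. For each gene, a region was counted when its summit lay between 2000 bp upstream of any transcript start and the end of the gene; that span is called the gene interval below.

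The data come from chromatin immunoprecipitation with sequencing (ChIP-seq) on whole hermaphrodite L1 larvae of strain OP506, genotype unc-119(tm4063) III; wgIs506, taken 6 h after they had been synchronized by bleaching and L1 starvation. The integrated transgene wgIs506 makes XBP-1 with GFP and FLAG at its C-terminus, and the sample description gives an antibody to GFP, though the antibody field names xbp-1. With the GFP antibody, the tagged protein from the transgene is what was measured. The 2 biological replicates form 1 group, and both carry the transgene and the unc-119 allele. No sample without the tag and no fed or continuously starved group was compared, and the label gives whole animals, so a region may come from any tissue.

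In C. elegans, insulin-like peptides act through the receptor DAF-2, the PI 3-kinase AGE-1 and the kinase AKT-1 to keep the FOXO transcription factor DAF-16 out of the nucleus, while the lipid phosphatase DAF-18 opposes AGE-1. The TOR kinase LET-363 works with its partner DAF-15 (Raptor), is switched on through the GTPase RAGA-1 when amino acids are present, and acts on protein synthesis through the S6 kinase RSKS-1. AAK-2, a catalytic subunit of AMP-activated kinase, is active when energy is low. Larvae that hatch without food arrest in L1, a state that DAF-16 helps to maintain, and feeding lets growth resume. XBP-1 is the bZIP factor of the endoplasmic reticulum unfolded protein response.

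Of the deposited ce11 lists, 1 held 3641 thresholded peaks, kept by their reproducibility between replicates (irreproducible discovery rate, IDR), and the others were relaxed lists that also hold background, with 26088 regions for the pooled reads, 30000 for replicate 1 and 28535 for replicate 2. Each region has a signal value given by the authors' peak caller, whose scale is not stated in the sources used here. It served to rank regions within a list, with rank 1 the strongest. Ratios of signal between the replicates, given below, describe the listed values and not amounts of binding. Read depth is unknown, since the lists hold no read totals, and 1 group of 2 replicates gives no test between conditions. All comparisons below are therefore descriptions, set beside the same measure over all protein-coding genes or all peaks.

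The sequences at the thresholded summits of the member genes are shown first, because the results turn on where these summits lie and what is written there. Each covers 50 bp on either side of the summit in the ce11 build, taken from the RefSeq genome of the same assembly (WBcel235) and read 5′ to 3′ on the strand of the gene. Capitals mark any of the 9 words searched below; here these are runs of the GAGAGAGA repeat, read as TCTCTCTC, and copies of ACGT. The summits of daf-16 and let-363 are described by position only.
daf-2 intron summit farther from the start (chrIII:3036151-3036251, minus strand): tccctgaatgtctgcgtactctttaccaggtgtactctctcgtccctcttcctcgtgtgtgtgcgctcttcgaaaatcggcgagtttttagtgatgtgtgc
daf-2 intron summit nearer to the start (chrIII:3037414-3037514, minus strand): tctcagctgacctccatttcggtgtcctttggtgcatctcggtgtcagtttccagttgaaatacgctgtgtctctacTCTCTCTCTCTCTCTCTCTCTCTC
daf-18 upstream summit (chrIV:425735-425835, minus strand): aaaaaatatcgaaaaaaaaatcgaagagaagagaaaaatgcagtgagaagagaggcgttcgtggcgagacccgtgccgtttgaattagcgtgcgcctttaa
daf-15 start summit (chrIV:9386173-9386273, plus strand): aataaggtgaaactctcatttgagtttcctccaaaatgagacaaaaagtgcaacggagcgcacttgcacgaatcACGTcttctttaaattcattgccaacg
rsks-1 upstream summit (chrIII:11243562-11243662, plus strand): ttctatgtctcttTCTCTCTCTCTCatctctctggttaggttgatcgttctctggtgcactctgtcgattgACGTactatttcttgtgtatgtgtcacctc
aak-2 intron summit, the strongest (chrX:16796962-16797062, plus strand): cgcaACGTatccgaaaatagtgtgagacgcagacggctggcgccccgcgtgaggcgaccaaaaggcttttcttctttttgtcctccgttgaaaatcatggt
aak-2 summit before the internal start (chrX:16799234-16799334, plus strand): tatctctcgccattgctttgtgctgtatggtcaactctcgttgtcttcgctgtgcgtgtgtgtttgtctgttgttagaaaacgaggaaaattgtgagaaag

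Of the 10 genes, 7 held a thresholded summit in their interval, where 20.7% of all protein-coding genes did. They were the receptor gene daf-2, the phosphatase gene daf-18, the FOXO gene daf-16, the TOR kinase gene let-363, the Raptor gene daf-15, the S6 kinase gene rsks-1 and the AMPK gene aak-2. The PI 3-kinase gene age-1, the kinase gene akt-1 and the RagA gene raga-1 held none. daf-16 had 3 summits, daf-2, let-363 and aak-2 had 2 each and the other 3 genes had 1 each, 12 in all. Having 2 or more was seen in 4 of the 10 genes and in 2.7% of all genes. In the relaxed lists the members stood nearer to the background: 8 of 10 held a pooled region, against 58.5% of all genes. In replicate 1 it was 9 of 10, against 61.8%, in replicate 2 it was 8 of 10, against 65.4%, and 8 of 10 held a region in both replicates, against 51.9%.

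Gene size bears on these counts, because a long interval has more room for a summit. The member intervals had a median length of 9519.5 bp, against 4027 bp over all genes. Among the 1690 genes with intervals at least as long as the members' median, 37.6% held a thresholded summit, and of the 5 members in that class 4 did. Among genes with shorter intervals the share was 19.2%, and 3 of the 5 shorter members held one. Per length, the intervals of all 10 members, long and short, held 7.91 summits per 100 kb. The value was 4.62 over all protein-coding genes and 3.46 over the long ones alone.

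**Figure D1:**
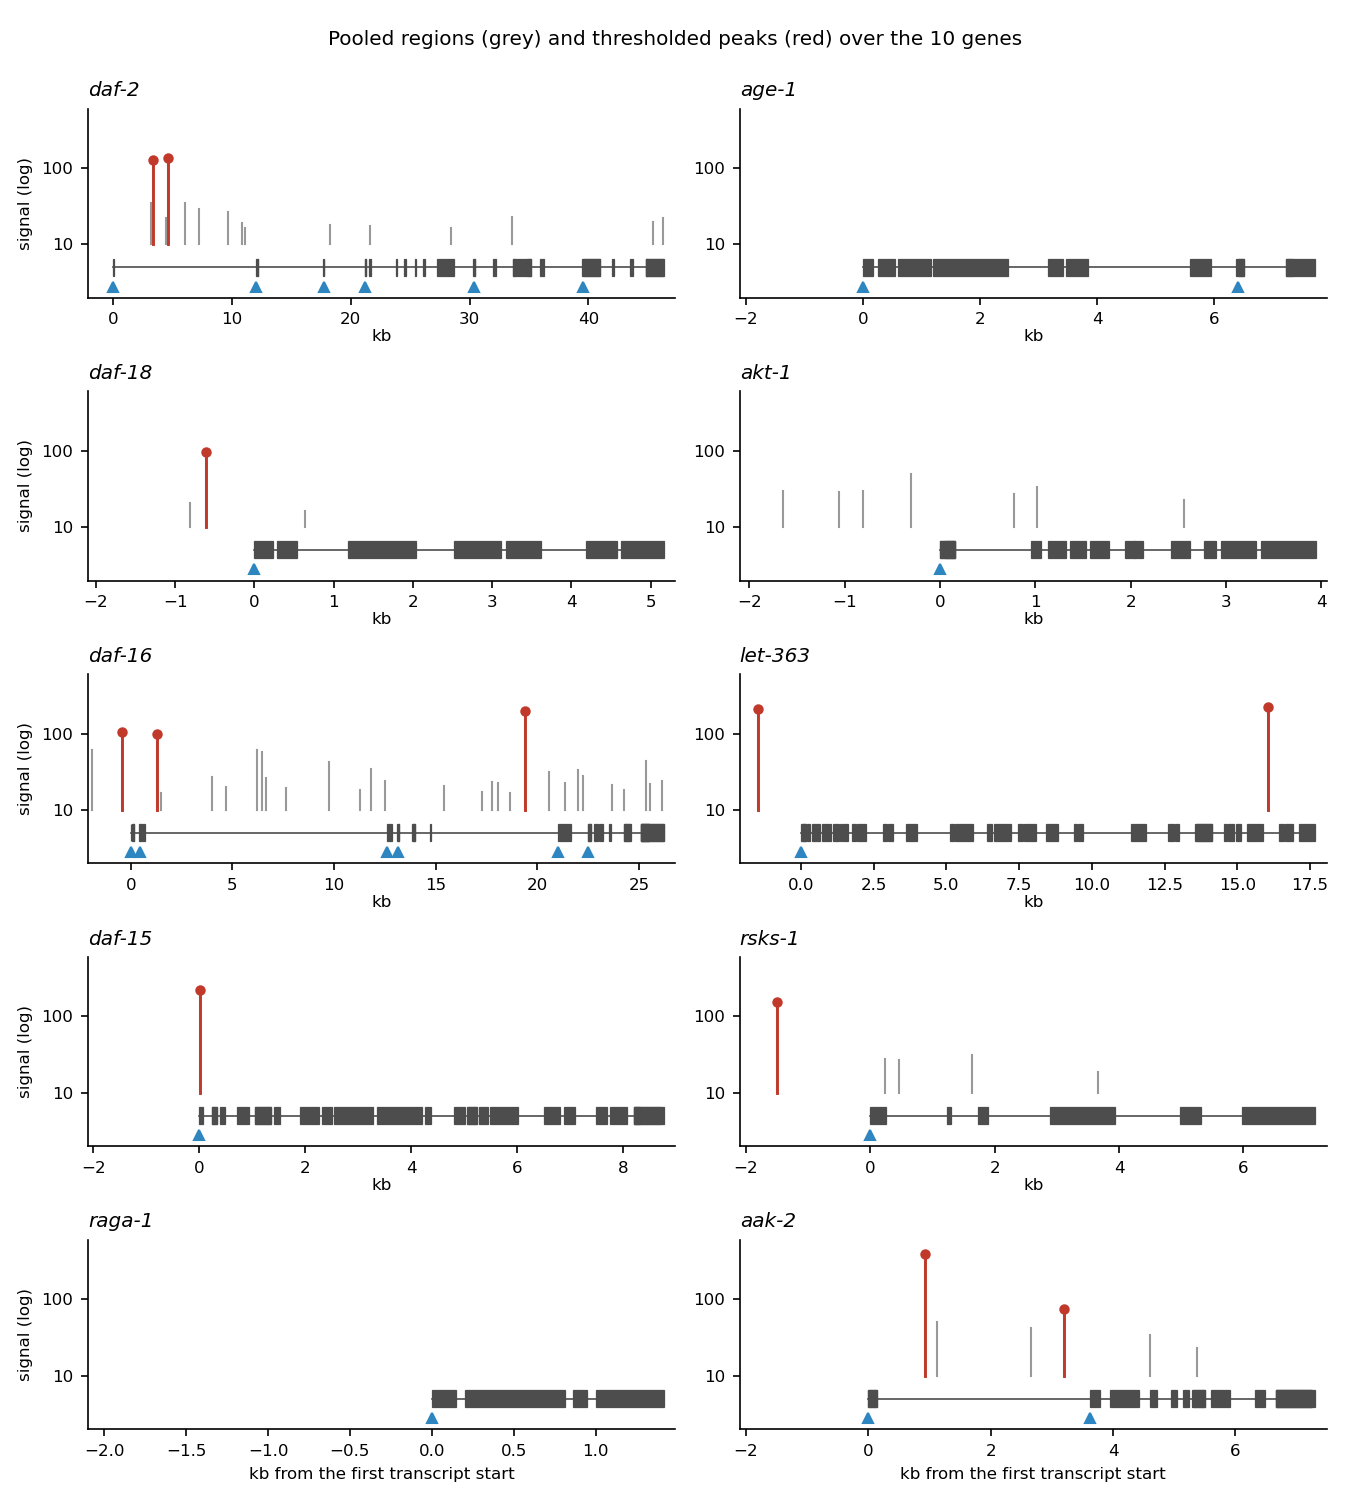
Regions over the 10 genes, each drawn 5′ to 3′ with distance in kb from its first transcript start on the x axis and the authors' signal value on a log y axis. Grey lines are pooled relaxed regions, red lines with dots are the 12 thresholded peaks, dark boxes below are exons of any transcript and blue triangles are alternative starts; age-1 and raga-1 have no line, akt-1 has grey lines only, and the red peaks of daf-2 stand in the intron after the first start.

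The 12 summits lay less at promoters and more in introns than those of all genes, and the difference was smaller beside long genes. A promoter window, from 1000 bp upstream to 200 bp downstream of a protein-coding transcript start, held a summit in 4 members (daf-18, daf-16, daf-15 and aak-2), against 15.5% of all genes. Of the 12 summits, 4 (33.3%) lay in a promoter window of the member itself, 6 (50%) in one of its introns outside such windows and 2 (16.7%) farther upstream. Over all pairs of a summit and a gene interval holding it, these shares were 67.7%, 10.5% and 20%. Over pairs with the long genes they were 53.7%, 31.9% and 12.6%. These were nearer to the members for promoter windows and introns, but not for the share farther upstream. The 6 intron summits came from daf-2, daf-16, let-363 and aak-2 only, so they are not independent of each other. Counting the promoter window of any protein-coding gene, 5 of the 12 (41.7%) lay in one, against 65.8% of all summits. From the first start to the gene end, with no upstream sequence, 5 of the 10 members held a summit, against 3.99% of all genes. Of the 5 members with long intervals 4 did, against 17.9% of the long genes.

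The 10 genes have 22 alternative promoters when starts within 300 bp are merged, and 5 of these (22.7%) held a thresholded summit, against 13.4% of all alternative promoters. Those were the only promoter of daf-18, that of daf-15, the internal promoter of aak-2, and the first and second promoters of daf-16, which share 1 summit. None of the 6 promoters of daf-2 held one, although the gene has 2 peaks.

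**Figure D2:**
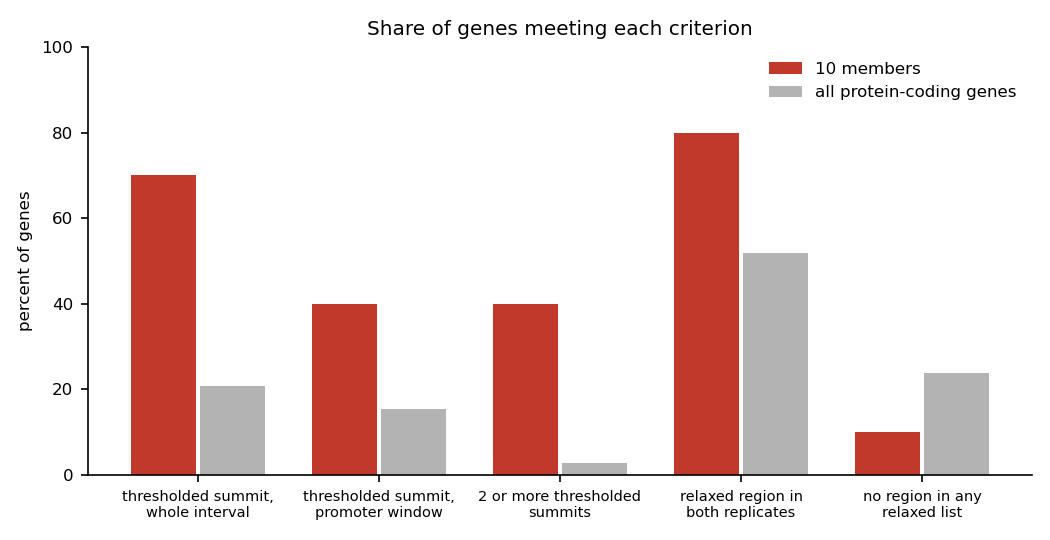
Percent of genes meeting each of 5 criteria, with the 10 members as red bars on the left of each pair and all 19973 protein-coding genes as grey bars on the right. The members stand above all genes in the first 4 criteria, and 10% of members, raga-1 alone, against 23.8% of all genes have no region in any relaxed list.

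At the top of the insulin pathway, the receptor gene daf-2 (WBGene00000898, chromosome III, minus strand, III:2994514-3040846) carried both of its peaks in the same place, the 11981 bp intron that follows the first start, of transcript Y55D5A.5c.1. The peak at chrIII:3036013-3036388 had a signal of 136 and rank 1993 in the thresholded list. Its signal was 80.6 in replicate 1 (rank 1711 of that replicate's list) and 53.7 in replicate 2 (rank 2474). The peak at chrIII:3037276-3037651 had a signal of 128 and rank 2131, with 53.4 in replicate 1 (rank 2614) and 73.7 in replicate 2 (rank 1790). The replicates thus put the 2 peaks in opposite order, and they cannot be ranked against each other.

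The daf-2 summits were 4645 and 3382 bp downstream of the first start, and 7401 and 8664 bp upstream of the next start, that of transcript Y55D5A.5a.1. Both lay inside linc-143, a long non-coding RNA gene annotated on the strand of daf-2, and the nearer summit was 79 bp from an annotated linc-143 start. At the 6 promoters themselves the relaxed lists held little: the only pooled region there, at the second promoter, had a signal of 16.5 and rank 24907. The part of linc-143 in these regions was not tested.

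The phosphatase gene daf-18 (WBGene00000913, chromosome IV, minus strand) had 1 peak, at chrIV:425597-425972, with a signal of 97.1 and rank 2756. Its signal was 46.1 in replicate 1 (rank 3027) and 45.0 in replicate 2 (rank 2950), so the replicates gave nearly the same value. The summit lay 608 bp upstream of the daf-18 start and 383 bp from the start of garr-1, which runs the opposite way from the same 990 bp of sequence between the genes. Since the summit was in the promoter windows of both, these lists do not say which of the 2 genes it belongs to.

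daf-16, the gene of the FOXO factor that insulin signalling holds back (WBGene00000912, chromosome I, plus strand, I:10750498-10776703), had the most peaks of the members and 6 alternative promoters. Its strongest peak, at chrI:10769675-10770050, had a signal of 199.7 and rank 1281, with 107.6 in replicate 1 (rank 1206) and 91.2 in replicate 2 (rank 1378). This summit lay inside a 7676 bp intron of the longer transcripts, 1645 bp upstream of the start of transcript R13H8.1a.1. That distance puts it outside the promoter window of R13H8.1a.1, and the pooled region inside that window had a signal of 31.5 and rank 8889.

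The other daf-16 peaks stood at the 5′ end of the gene. The peak at chrI:10749860-10750235 had a signal of 104.6 and rank 2552, with 63.1 in replicate 1 (rank 2227) and 38.7 in replicate 2 (rank 3435). Its summit was 450 bp upstream of the first start, 912 bp upstream of the second, and 18 bp from the start of the non-coding RNA gene H36N01.4. The peak at chrI:10751595-10751970 had a signal of 99.4 and rank 2692, with 56.0 in replicate 1 (rank 2490) and 45.8 in replicate 2 (rank 2886), and its summit lay 823 bp downstream of the second start in a 12401 bp intron. Between the replicates the strongest peak stayed first, while the other peaks changed places in signal order.

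Of the insulin branch, akt-1 and age-1 had no thresholded summit, and they differed from each other in the relaxed lists. akt-1 (WBGene00000102, chromosome V, plus strand) held 7 pooled regions, 11.8 per 10 kb of its interval against 2.65 over all genes. The strongest, 305 bp upstream of the first start, had a signal of 49.5 and rank 5240. A region at this place was listed in both replicates, with a signal of 23.4 in replicate 1 (rank 6007) and 28.4 in replicate 2 (rank 4725). In replicate 2 a region 1627 bp upstream of the start was stronger, with a signal of 34.4 and rank 3834.

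A thresholded peak also lay just beyond the limit set for akt-1. It covered chrV:10246446-10246821, with its summit 2271 bp upstream of the akt-1 start and 271 bp outside the interval, and akt-1 was the gene with the nearest protein-coding start. Its signal was 112 and its rank 2420, with 47.5 in replicate 1 (rank 2927) and 64.1 in replicate 2 (rank 2096). The members just inside the limit were rsks-1, with a summit 1508 bp upstream of its start, and let-363, with one 1462 bp upstream. Whether akt-1 counts as a gene with a peak therefore rests on the 2000 bp limit.

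age-1, the PI 3-kinase gene (WBGene00000090, chromosome II, minus strand), had no pooled region and no replicate 2 region. Replicate 1 listed 1 region, 350 bp upstream of the first start, with a signal of 9.38 and rank 22143 of 30000. The gene starts 113 bp from the end of mdt-8 on the same strand, and the mdt-8 interval held 2 thresholded summits. Whether age-1, raga-1 or let-363 is transcribed together with the close neighbour before it was not tested. The nearest thresholded summit was 5754 bp outside the age-1 interval, at rank 522, where Y62F5A.12 had the nearest start.

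In the TOR branch, the kinase gene let-363 (WBGene00002583, chromosome I, plus strand, I:5245743-5263424) had 2 thresholded peaks and nothing else in the pooled list over 19.7 kb. The peak at chrI:5261703-5261856 had a signal of 221 and rank 1118, with 122.8 in replicate 1 (rank 1018) and 98.2 in replicate 2 (rank 1272). Its summit lay 16035 bp downstream of the first start, in intron 29, which is 571 bp long, and no annotated protein-coding start was nearer than 1916 bp, that of vep-1. The peak at chrI:5244199-5244373 had a signal of 211 and rank 1206, with 122.0 in replicate 1 (rank 1030) and 80.6 in replicate 2 (rank 1625). It was 1462 bp upstream of let-363 but 2 bp from the start of mrpl-47, a mitochondrial ribosomal protein gene that ends 340 bp before let-363 on the same strand.

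let-363 and daf-16 differed more in their pooled regions than in the signal of their strongest peak. This pair was singled out after its values were seen. let-363 held 1.02 pooled regions per 10 kb and daf-16 10.3, with 2.65 over all genes. The strongest peaks of the 2 genes had signals of 221 and 199.7. Other members lay beyond this range, with 0.928 per 10 kb at daf-15, no pooled region at age-1 or raga-1, and 11.8 at akt-1. In replicate 1 the densities were 1.52 per 10 kb at let-363 and 9.57 at daf-16, and in replicate 2 they were 1.02 and 7.09.

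daf-15, which encodes Raptor, the partner that brings TOR its substrates (WBGene00000911, chromosome IV, plus strand), had 1 peak and no other pooled region. The peak at chrIV:9386124-9386300 had a signal of 219 and rank 1134, with 106.0 in replicate 1 (rank 1226) and 113.5 in replicate 2 (rank 1031). Its summit lay 15 bp downstream of the start of transcript C10C5.6c.1, in coding sequence of that transcript, and 227 to 234 bp upstream of the starts of the other 4 transcripts. It was the summit nearest to a protein-coding start of its own gene among the 12.

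rsks-1, the S6 kinase gene (WBGene00012929, chromosome III, plus strand), also had 1 peak, at chrIII:11243424-11243799, with a signal of 153.5 and rank 1744. The replicates were close, with 75.8 in replicate 1 (rank 1824) and 72.2 in replicate 2 (rank 1830), the smallest gap in rank between replicates among the 12 member peaks. Its summit stood 1508 bp upstream of the rsks-1 start with no nearer protein-coding start, in the 5915 bp that separate rsks-1 from aakb-2, which encodes an AMPK beta subunit.

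raga-1, the gene of the GTPase that passes on the amino acid signal (WBGene00006414, chromosome II, plus strand), was the only member with no region in the thresholded, pooled or replicate lists; 23.8% of all genes had none in any relaxed list. Its interval was also the shortest, 3418 bp. It starts 98 bp after the end of saps-1 on the same strand, and saps-1 held no thresholded summit either. The nearest thresholded summit was 5762 bp outside the interval, at rank 1321.

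aak-2, the gene of the AMPK catalytic subunit (WBGene00020142, chromosome X, plus strand), carried both the strongest and the weakest of the 12 peaks. The strong peak at chrX:16796899-16797110 had a signal of 391 and rank 449, with 193.1 in replicate 1 (rank 491) and 193.8 in replicate 2 (rank 448). It was the only member peak among the 1000 strongest. Its summit lay in the 3475 bp first intron of transcripts T01C8.1a.1 and T01C8.1b.1, 925 bp downstream of the first start, 2695 bp upstream of the start of T01C8.1c.1 and 162 bp from the start of the non-coding RNA gene T01C8.9.

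The weak aak-2 peak, at chrX:16799096-16799471, had a signal of 75.3 and rank 3530 of 3641. It stood in the same intron, 423 bp upstream of the start of T01C8.1c.1, and so in the promoter window of that internal start. Its signal was 45.1 in replicate 1 (rank 3090). In replicate 2 the strongest overlapping region had a signal of 34.3 (rank 3844) with its summit 305 bp away, and a weaker one, with a signal of 27.9 (rank 4832), had its summit 25 bp away. This was the only member peak outside the 3641 strongest regions of a replicate.

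Set among all thresholded peaks, the member peaks were of middling strength. Their signals ran from 75.3 to 391, with a median of 145 against 147.6 over the list, and their median rank was 1868.5 against 1821. The peak of hsp-3, a BiP chaperone gene, was at rank 1 with a signal of 34888. That of the other BiP gene, hsp-4, was at rank 9 with 3537, and the strongest member peak was at rank 449 with 391.

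**Figure D3:**
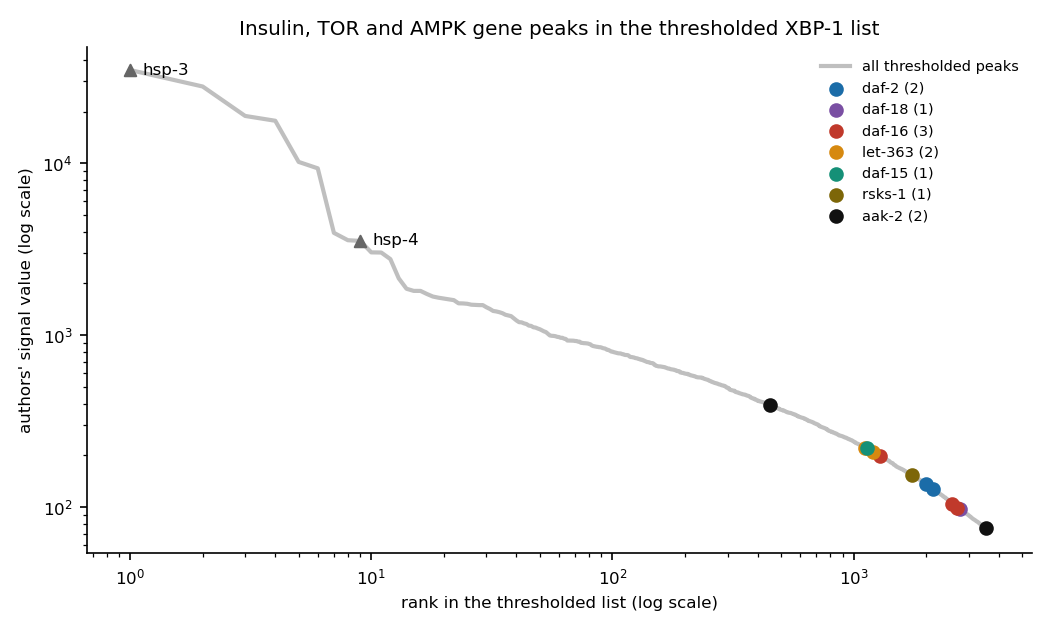
Signal value (log y axis) against rank (log x axis) for all 3641 thresholded peaks in grey, with the 12 member peaks as coloured dots and hsp-3 and hsp-4 as triangles. The member peaks lie between ranks 449 and 3530, and all but the strong aak-2 peak fall beyond rank 1000.

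Both replicates held every member peak. The ratio of replicate 1 to replicate 2 signal ran from 0.724 to 1.63 with a median of 1.20, and 9 of the 12 were higher in replicate 1; over all peaks the median ratio was 1.06, and its percentiles 5 and 95 were 0.662 and 1.67 (n = 3639 peaks). The median gap in rank between replicates was 325 for member peaks, against 275 over all peaks and 421 over all peaks from rank 1000 on, where 11 of the 12 lie. Of the 12, 11 were among the 3641 strongest regions in both replicates; over all thresholded peaks the share was 85.4%. The thresholded list was chosen for agreement between these replicates, so their likeness is no independent check of it.

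**Figure D4:**
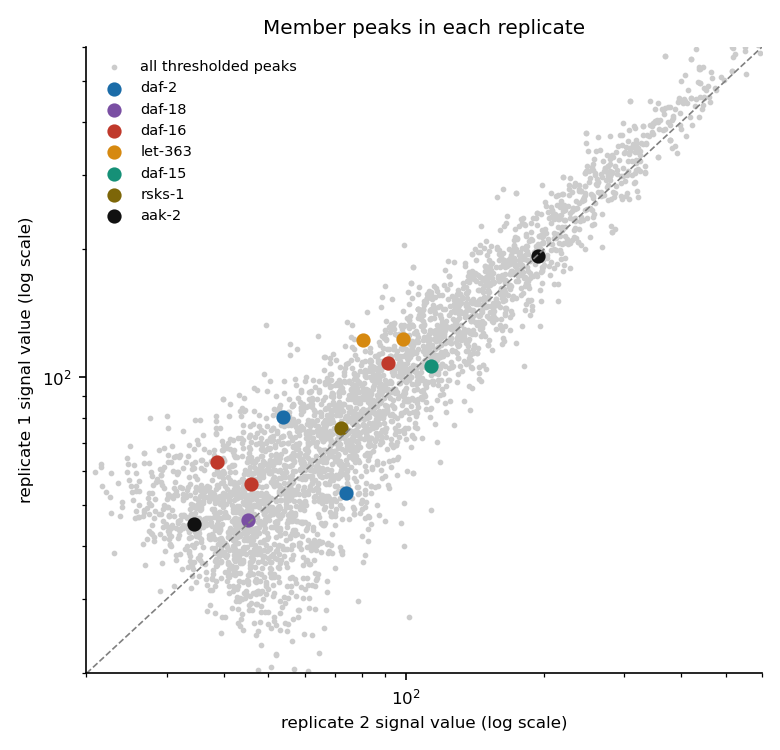
Replicate 1 signal (y axis) against replicate 2 signal (x axis), both on log scales and cropped to the part that holds the member peaks, with all thresholded peaks in grey, member peaks in colour and the dashed line at equal values. The strong aak-2 peak and the peaks of rsks-1 and daf-18 lie on the line, and the 2 daf-2 peaks lie on opposite sides of it.

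Short sequence words were searched on both strands within 50 bp of each summit, 9 in all. TGACGTG, the core of the element that XBP-1 binds in mammals, was in 0 of the 12 windows, which allows a share of up to 25%, and in 3.43% of all thresholded windows. That limit is 3 divided by the number of windows. It treats the windows as independent, though several come from the same gene, so it is a rough guide only. The palindrome TGACGTCA, bound by CREB and ATF factors, was also in 0 of 12, against 1.68% of all windows. The word CCACGT was in 0 of 12, against 5.93%. The GATA word TGATAA was in 0 of 12, against 3.32%, and ATTGCATCA was in 0 of 12, against 0.11%. The core ACGT, which lies inside the first 3 of these words and inside the E-box word below, was in 4 of 12 windows (daf-16, daf-15, rsks-1 and aak-2), against 30.1%.

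The word CACGTG (E-box) stood in 1 window, 15 bp from the daf-16 summit in the 12401 bp intron, against 5.47% of all windows. GTAAACA, the word bound by FOXO factors such as DAF-16, was in 1 window, 26 bp from the daf-16 summit upstream of the first start, against 2.44%. GAGAGAGA repeats were in 3 of 12, at daf-2, daf-16 and rsks-1, against 6.62% of all windows. Within 25 bp of the summit, GAGAGAGA was in 1 of 12, at daf-16, against 3.35%, and GTAAACA was in 0 of 12, against 1.13%. The 3 summits with the repeat within 50 bp lay outside every protein-coding promoter window, and over all thresholded summits outside such windows the share was 9.47%, against 5.14% of those inside. These are matches of letters, not shown sites, and a word missing from a window says nothing about the factor.

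The same windows had a median G+C content of 44.1%, against 47.5% over all thresholded windows. Within 200 bp of 3 of the 12 summits, those at daf-2, daf-16 and aak-2, lay the start of a non-coding RNA gene other than a piRNA gene, against 18.4% of all summits. Of the 12 peaks, 4 were narrower than the commonest width of 376 bp (both let-363 peaks, the daf-15 peak and the strong aak-2 peak), against 37.2% of all thresholded peaks.

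The genes closest to the strongest members in rank were found by the sum of rank differences over 3 lists (thresholded, replicate 1 and replicate 2) among 3087 other genes with a promoter peak matched in both replicates. For aak-2 they were F28C10.3 (sum 12), egl-21 (13) and ucr-2.2 (27). For daf-15 they were Y75B8A.18, Y75B8A.19 and gmn-1, which share 1 peak (34), and for let-363 they were F44B9.8 (67) and W01A8.2 with plin-1 (84). The other genes were taken by their promoter peak, while the strongest aak-2 and let-363 peaks lay in introns outside promoter windows. This likeness is in peak strength only.

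The rest of the pathway was looked at through 49 further genes, all matched in the annotation, of which 27 (55.1%) held a thresholded summit in their interval, against 20.7% of all genes. Their intervals had a median length of 5506 bp. In 18 of the 27, the strongest peak was nearest to a start of the gene itself, and in 9 to a start of another gene.

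Of 7 genes for insulin-like peptides, the ligands of the pathway, 0 held a thresholded summit, which allows a share of up to 42.9%. That limit is 3 divided by the number of genes, and it treats genes picked by name as independent draws. As a rough guide, it takes in the 20.7% of all genes and the 19.2% of genes with shorter intervals. Of the 7, 3 had no pooled region either. daf-28 had 1 pooled region and ins-1 had 3. Their intervals were short, with a median of 2835 bp. The interval of daf-2, the receptor of these peptides, was 48333 bp.

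On the receptor and PI 3-kinase side 5 of 7 genes held a summit, against 20.7% of all genes. The median interval there was 9281 bp. pptr-1, a regulatory subunit of the phosphatase that acts on AKT-1, was the strongest (signal 326, rank 626, with 162 in replicate 1 and 161 in replicate 2). rict-1, the Rictor gene of TOR complex 2, followed (signal 314, rank 667), but its summit was nearer to the start of gfm-1. aap-1, the PI 3-kinase adaptor gene (rank 1177), had its summit 9 bp from the start of use-1. The kinase gene pdk-1 (rank 1307) had its summit in an intron 1841 bp from its nearest start. ist-1 and sgk-1 had no thresholded summit.

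Among genes whose products act with or beside DAF-16, 7 of 9 held a summit, against 20.7% of all genes. Their median interval was 4912 bp. The interval of smk-1, a DAF-16 co-regulator, held the strongest peak of the 49 (signal 848, rank 90, with 410 in replicate 1 and 438 in replicate 2), 1329 bp upstream of its start and 343 bp from that of vps-60. ftt-2, a 14-3-3 protein gene, had its peak 741 bp upstream of its start (signal 475, rank 321). The stress factor gene skn-1 (rank 1058) had it in an intron, and the sirtuin gene sir-2.1 (rank 1162) 75 bp upstream of its start. eak-7 and pqm-1 had none. hlh-30, the gene of a TFEB-like factor, held 6 thresholded summits over 22159 bp, more than any member, and was singled out after its values were seen.

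On the TOR side 8 of 15 genes held a summit, against 20.7% of all genes, with a median interval of 4352 bp. The strongest was in the interval of sinh-1, the SIN1 gene of TOR complex 2 (signal 568, rank 228), in its 3′ UTR and 2654 bp from the nearest protein-coding start, that of txdc-12.1. rheb-1, the GTPase gene that activates TOR, had a peak 290 bp upstream of its start (signal 379, rank 475, with 182 in replicate 1 and 198 in replicate 2) and 288 bp from the start of spk-1. ife-2, a cap-binding initiation factor gene (rank 1115), and lmtr-3, a Ragulator gene (rank 1230), had promoter peaks of their own. ragc-1, whose product pairs with RAGA-1, had a peak 142 bp upstream of its start (signal 129, rank 2114), where raga-1 had none, and this pair was singled out after its values were seen. mlst-8, the gene of a TOR complex subunit, had no pooled region, and nprl-2 had 2 but no thresholded summit.

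On the AMPK side 7 of 11 genes held a summit, against 20.7% of all genes, with a median interval of 6101 bp. aakg-5 (signal 288, rank 757) and aakg-1 (rank 1091), which encode gamma subunits, were the strongest, at 15 bp upstream of a start and in an intron 5379 bp from the nearest start. The beta subunit genes aakb-2 (rank 1643) and aakb-1 (rank 2298) followed. The aakb-2 summit was 169 bp upstream of its start and nearer, at 106 bp, to the start of Y47D3A.14. aak-1, the other catalytic subunit gene, had none, and neither did aakg-2. aak-2 at rank 449 stood above all 7 of them in the list.

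**Figure D5:**
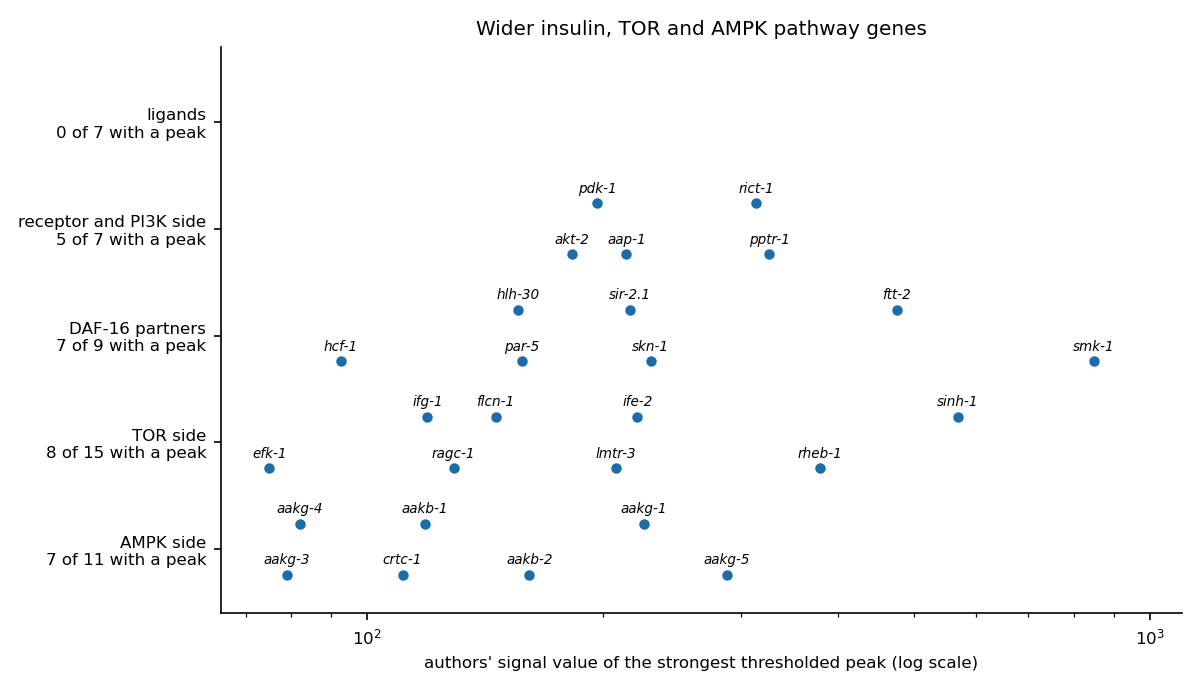
Signal value of the strongest thresholded peak (log x axis) for the 27 of 49 wider pathway genes that have one, in rows by role with the count of genes with a peak. The ligand row is empty, and smk-1, sinh-1 and ftt-2 lie farthest to the right.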

How the data were processed

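ChIP-seq of tagged XBP-1 in 2 replicates was taken from the deposited region lists in ce11; ce10 lists were not used. As the deposited file lists record, relaxed regions were called for each replicate and for both pooled, each with 1 further file that the control-normalized signal also used, and the thresholded list was derived from them by IDR. For the aligner and the caller, names and versions were not given in the sources used here. The deposited signal values are the authors' own. The deposited q-values are −log10 values; 85.0% of thresholded peaks share the highest, so they were not used.

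Gene models came from Ensembl release 115 (WBcel235, the assembly of ce11); 99.9% of 31805 annotated start codons read ATG in the RefSeq sequence. Summits are region start plus offset. A thresholded peak was matched to the strongest region overlapping it by at least 1 bp in each replicate. No test was made. The assignment code was run on simulated summits planted inside the intervals of 500 randomly drawn protein-coding genes, and 500 of 500 were recovered. Planting and counting used the same interval definition. The run therefore checks the code only, not the choice of interval or the annotation. Python 3.11.15 was used.

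Members and lists were chosen with earlier results of these data known. The text names all members, genes sharing their summits, hsp-3 and hsp-4, per role up to 4 wider genes with the strongest peaks and up to 2 without, and the nearest genes in rank; exceptions are stated. Alternatives were other upstream reaches, promoter windows, signal thresholds, overlap rules, lists and word windows.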

Additional observations from a re-analysis of the deposited data

How the results depend on the processing

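The count of members with a thresholded summit, 7, stayed between 5 and 8 under every alternative tried. It was 5 among the 1820 strongest peaks (daf-2 and daf-18 lost) and 5 with 0 bp upstream (daf-18 and rsks-1 lost). With 1000 bp upstream it was 6 (rsks-1 lost), where 17.2% of all genes held a summit. With 5000 bp it was 8 (akt-1 gained), where 28.2% of all genes did, so the background moved with the reach. When a summit counted only for the gene with the nearest start it was 5, and no share of all genes is given for that rule. Taking the 3641 strongest regions of a single replicate kept the same 7 genes, with 11 and 13 summits in place of 12, a background of 20.6%, 3 to 4 members with a promoter summit, 25 to 26 wider genes, and a median rank of the members' strongest peaks of 1226 to 1378 in place of 1281. Among the 1820 strongest peaks, 12.3% of all genes held a summit in their interval, beside the 5 members given above. The members held 6 of these summits. With those peaks 1 member kept a promoter summit (daf-15), and no share of all genes is given for that count. With 0 bp upstream the background was 3.99% and 7 wider genes held a summit; both follow from leaving out upstream sequence. Any of the 9 words was in 7 of 12 windows of 50 bp on either side and in 3 with 25 bp, where all peaks fell to 21.7%, against 39.1%. No paired analysis was possible because there is 1 group. Depth is unknown, so a missing region is not shown to be unbound.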
